A study of Mus musculus with 12 samples.

Results

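Complement and coagulation factors are the plasma proteases, their cofactors and their inhibitors that mark microbes for killing and that form and dissolve blood clots. The set held 36 listed genes, taken by their symbol in the array's annotation, of 18820 genes tested, and the brightest probe set was to stand for each gene. A probe set of a single symbol measured 31 of them, and none of the 31 had more than 1 such probe set. C4b, Masp2 and Klkb1 were read by probe sets that also carry another gene's symbol (C4a, Tardbp and Cyp4v3), and C3 and Cpb2 are not named by a probe set here, so these 5 genes are outside the counts. RNA had been hybridised to 12 one-colour arrays, 3 in each of 4 groups: whole liver and primary hepatocytes (the isolated secretory cells that make up most of the organ), each from WT and from JNKΔhepa mice. All mice were males on a C57BL/6 background at 7 to 8 weeks of age, kept on chow without a treatment named in the labels. WT mice were Jnk1 f/f Jnk2+/+ littermates, so both genotypes carried the floxed Jnk1 allele. JNKΔhepa mice had lost Jnk1 (Mapk8) in hepatocytes through a Cre driven by the albumin promoter with alpha-fetoprotein enhancer elements, and Jnk2 (Mapk9) in every cell of the body. The knockout of Jnk2 in other liver cells is therefore part of each genotype comparison. Liver and hepatocytes came from the same 6 mice, 3 per genotype. The p-values rest on the spread between arrays of a group, each from another mouse, pooled over the 4 groups. The main fit did not pair the tissues of a mouse.

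Complement is started by several routes: antibody and C1 (classical), sugar-binding lectins with their proteases (lectin), and spontaneous turnover of C3 (alternative). All converge on C3 and C5, after which C5 fragment b, C6, C7, C8 and C9 assemble a pore in the target membrane. Coagulation is a chain of zymogens that ends in thrombin and fibrin, is held back by antithrombin and the protein C system, and is undone by plasmin. Hepatocytes make most of these proteins for the plasma, several of them as positive acute phase proteins under cytokine control. Jun N-terminal kinases phosphorylate Jun, a subunit of the transcription factor AP-1.

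Mapk9 fell by 5.90 on the log2 scale in JNKΔhepa liver and by 5.47 in JNKΔhepa hepatocytes, and Mapk8 fell by 0.40 and by 0.61, so Mapk9 followed the genotype labels on all arrays. Which exons the floxed allele loses is not stated, so the Mapk8 probe set does not check that deletion. Hepatocyte markers were high in both tissues: 9 of 12 listed markers were measured, and their summed linear level ranged over 46800 to 49700 in the 6 liver arrays and 41700 to 46600 in the 6 hepatocyte arrays. Markers of Kupffer cells and macrophages (13 measured) had sums of 554 to 1490 in hepatocytes against 3690 to 5200 in liver, and at most 1 of the 13 was below the array median on all arrays of a group. Over all probe sets, hepatocyte arrays had medians of 3.22 to 3.28 and liver arrays of 4.09 to 4.12. The liver and hepatocyte arrays thus appear to have been normalised apart, which bears on each level set across tissues. All 31 members read above the median of their array on all 12 arrays, with readings of 7.00 to 12.44.

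The terminal pathway held the largest genotype difference, so the sequences before its genes are shown first. Of the 31 measured members 23 had a RefSeq promoter entry (GRCm38.p6), with 24 start sites between them. Cfi, the other member that changed, had none in the table. The 250 bases before each start were searched on both strands for 6 motifs: AP-1 (TGANTCA), CRE (TGACGTCA), C/EBP (TTGCNNAA), the HNF1 core (GTTAAT), HNF4 (CAAAGNNCA) and STAT (TTCNNNGAA). Matches are in capitals in the sequences, which run 5′ to 3′ on the gene's strand and stop before the earliest annotated start of the gene. C6 fell in liver, and C8a, C8b and C9 had the next lowest liver differences of the pathway. These last sequences were chosen after their values were seen.
C6, chr15:4726960-4727066, plus strand: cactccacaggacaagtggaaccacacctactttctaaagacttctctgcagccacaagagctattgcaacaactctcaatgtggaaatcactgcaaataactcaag
C8a, chr4:104876488-104876648, minus strand: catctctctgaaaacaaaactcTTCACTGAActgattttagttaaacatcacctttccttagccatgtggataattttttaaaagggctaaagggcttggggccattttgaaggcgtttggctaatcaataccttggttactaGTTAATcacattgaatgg
C8b, chr4:104766067-104766316, plus strand: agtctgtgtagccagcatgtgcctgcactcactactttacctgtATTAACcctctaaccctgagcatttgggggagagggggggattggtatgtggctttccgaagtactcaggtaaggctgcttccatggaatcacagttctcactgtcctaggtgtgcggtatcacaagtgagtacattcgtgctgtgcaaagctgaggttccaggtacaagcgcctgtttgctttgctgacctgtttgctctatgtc
C9, chr15:6445096-6445345, plus strand: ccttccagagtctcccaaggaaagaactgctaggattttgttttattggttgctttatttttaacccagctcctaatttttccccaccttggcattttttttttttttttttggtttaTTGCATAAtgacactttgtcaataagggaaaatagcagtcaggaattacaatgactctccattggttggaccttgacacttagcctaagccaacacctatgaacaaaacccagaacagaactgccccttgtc

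The 250 bases before the C6 start used here held none of the 6 motifs. Only the 107 printed bases of C6 and the 161 of C8a lie before the earliest annotated start of their gene. The rest of these windows lies inside the annotated gene. The C8a window held an HNF1 core from base -107 to -102 before the start and a STAT motif from -228 to -220. The C8b window held an HNF1 core on the other strand, from -206 to -201, and the C9 window a C/EBP motif from -132 to -125. No matches overlapped each other in these windows. Over the members, the HNF1 core occurred in 7 of 24 windows (29.2%, in C4bp, C8a, C8b, F13b, Hc, Hgfac and Vtn), against 6.43% of all 32851 promoters of the same length. The AP-1 motif occurred in 2 member windows (8.33%, in C8g and F2), against 6.75% of all promoters, and the CRE in 0 of 24 against 1.55%. STAT motifs were found in 4 member windows (16.7%, against 7.02%). HNF4 and C/EBP motifs were found in 3 windows each (12.5%, against 5.49% and 9.56%). A match describes these letters only, and nothing was measured here on the binding of any factor.

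The first comparison asked which members differed between JNKΔhepa and WT in whole liver. Of 31 members 2 fell and 0 rose: C6, a subunit of the membrane attack pore, and Cfi, the protease factor I that cuts C3b and C4b and so stops the cascade. Among all genes 0.925% passed in either direction and 0.367% passed as lower. The other 29 members lay between -0.34 and 0.29 on the log2 scale. The median over the 31 was 0.00, with 15 above and 16 below 0, and the median of all genes was 0.02. Unadjusted p was under 0.05 for 9 members, beside 12.5% of all genes. WT and JNKΔhepa arrays did not overlap for 9 members (6 lower and 3 higher in JNKΔhepa), which is 9 of 31 beside 20.4% of all genes. RNA of whole tissue cannot tell fewer cells of a type from less RNA per cell.

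**Figure D1:**
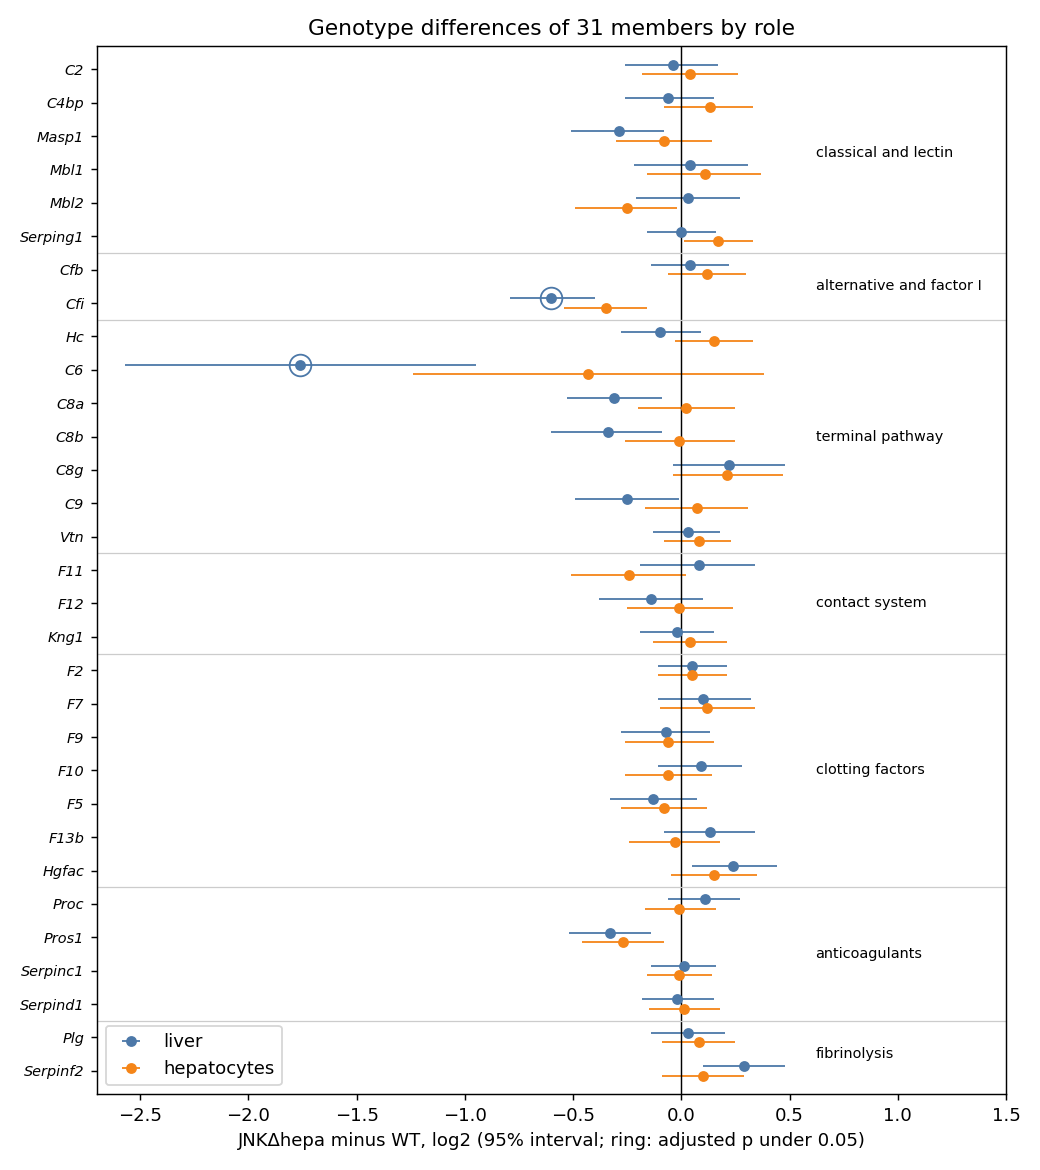
JNKΔhepa minus WT differences (log2, points) with 95% intervals (lines) of the 31 measured members, grouped by role, in liver (blue) and hepatocytes (orange). Rings mark the 2 liver values past the threshold, C6 at -1.76 and Cfi at -0.60, and most other intervals cross 0.

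C6 (probe set 10422635) read 10.44, 10.73 and 9.40 in WT liver, against 8.58, 7.88 and 8.84 in JNKΔhepa liver. Each WT array lay above each JNKΔhepa array, and WT array 3 stood between the others and the JNKΔhepa group. The means were 10.19 ± 0.697 and 8.43 ± 0.496 (SD, n = 3), and C6 fell 3.38-fold in JNKΔhepa liver (log2 difference -1.76, SE 0.374, 95% interval -2.57 to -0.95, limma adjusted p = 0.0487). That p lies close to the threshold, and leaving out any of 9 of the 12 arrays ended the call: liver WT 1 (adjusted p = 0.176), WT 2 (0.159), JNKΔhepa 1 (0.122), JNKΔhepa 2 (0.168) or JNKΔhepa 3 (0.0725), or hepatocyte WT 1 (0.0582), WT 3 (0.0722), JNKΔhepa 2 (0.0683) or JNKΔhepa 3 (0.0628). The call also ended when each tissue was fitted alone (0.0894), with a trended and robust variance prior (0.137) and over all probe sets (0.14), while the difference stayed between -2.15 and -1.48 without single arrays. C6 was also the member that varied most from mouse to mouse, with the highest SD of the 31 in all 4 groups (0.697, 0.496, 0.582 and 0.474, beside member medians of 0.0819, 0.0991, 0.0752 and 0.0687).

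Cfi (probe set 10496001) read 10.98, 10.98 and 10.88 in WT liver, against 10.44, 10.31 and 10.30 in JNKΔhepa liver. The groups were separate by several times their own range. Cfi fell 1.51-fold (log2 difference -0.60, SE 0.0882, 95% interval -0.79 to -0.40, limma adjusted p = 0.00671), from a mean of 10.95 ± 0.0556 to 10.35 ± 0.0803 (SD, n = 3). It passed under each alternative setting (adjusted p = 0.00101 to 0.0228) and without each array in turn (0.00587 to 0.0353). Cfb, the other measured protease of the alternative pathway, differed by 0.04 (adjusted p = 0.911).

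**Figure D2:**
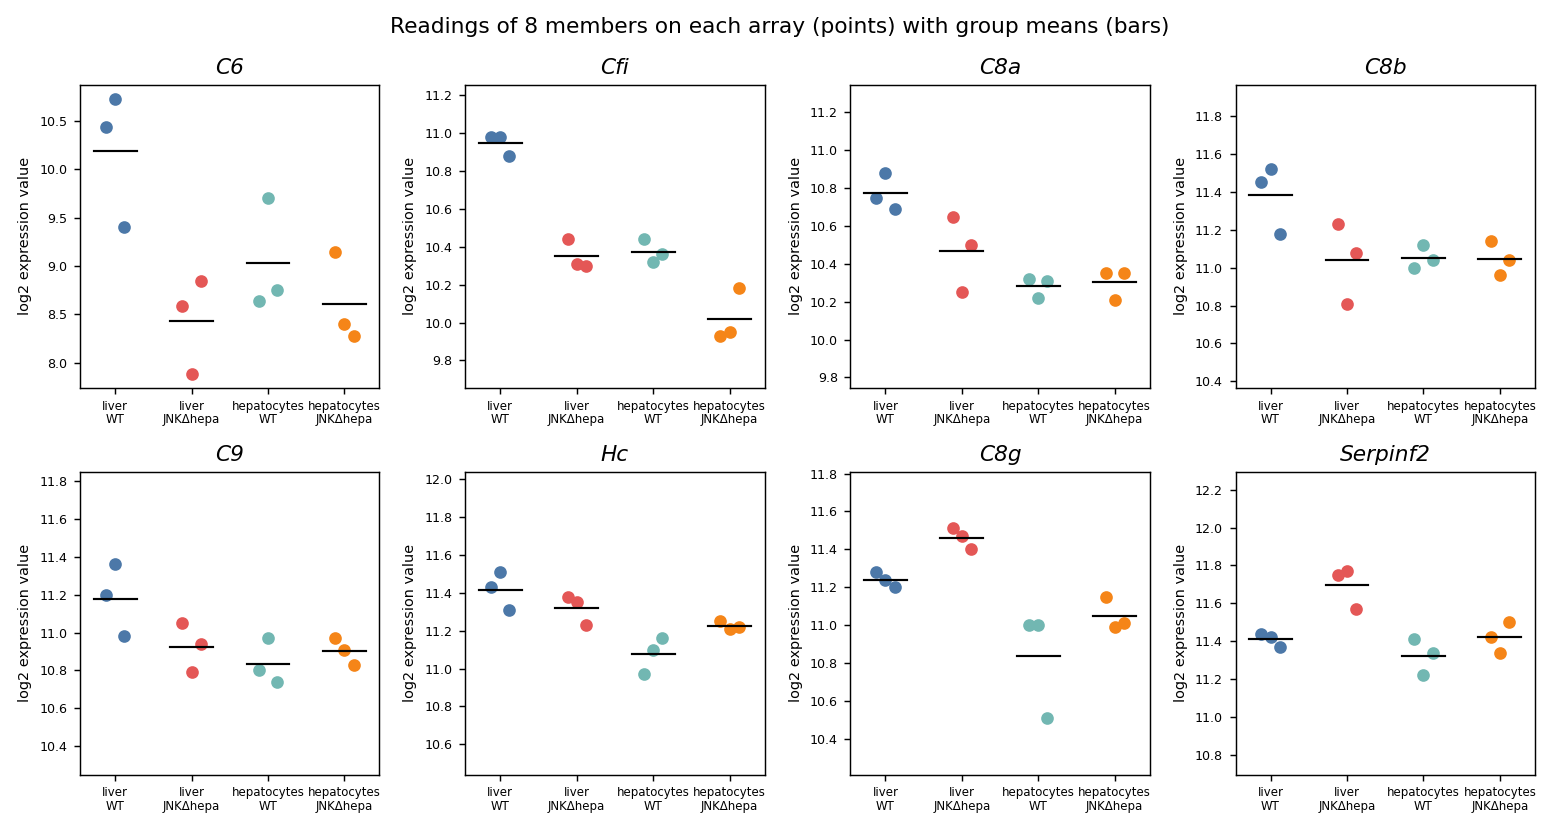
Log2 readings of 8 members on each array (points) with group means (bars), in liver and hepatocytes of WT and JNKΔhepa mice, each panel on its own axis range. C6 and Cfi show the liver genotypes apart, with C6 spread widely within each group.

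The other members of the terminal pathway gave smaller liver differences that did not pass. Hc encodes C5, whose larger fragment starts the pore, and it differed by -0.10 (limma adjusted p = 0.727). C8a and C8b encode the alpha and beta chains of C8, relatives of the pore-forming C9. C8a read 10.75, 10.88 and 10.69 in WT, against 10.65, 10.25 and 10.50 in JNKΔhepa liver, and its groups did not overlap (-0.31, SE 0.103, adjusted p = 0.218). C8b read 11.45, 11.52 and 11.18 in WT, against 11.23, 10.81 and 11.08 in JNKΔhepa liver, and WT array 3 lay below the highest JNKΔhepa array (-0.34, SE 0.117, adjusted p = 0.227). C9, which polymerises to complete the pore, differed by -0.25 with groups that overlapped (adjusted p = 0.366). C8g, the lipocalin-like gamma chain of C8, went the other way: 11.28, 11.24 and 11.20 in WT against 11.51, 11.47 and 11.40 in JNKΔhepa, without overlap (0.22, SE 0.119, adjusted p = 0.486). Vtn, which encodes vitronectin, a plasma protein that keeps the forming pore off host membranes, differed by 0.03 (adjusted p = 0.932). In all, 5 of the 7 genes lay below 0 with a median of -0.25, and only C6 passed.

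Several of these 7 genes were lowest or highest on the same liver arrays within a genotype. WT liver array 3 was the lowest of its group for 6 of the 7 and array 2 the highest for 5. Vtn ran the other way, lowest on array 1 and highest on array 3. Among the other 24 members array 3 was the lowest for 4 and the highest for 14. In JNKΔhepa liver array 2 was the lowest for 4 of the 7 and array 1 the highest for 5. Among the other 24 members array 2 was the lowest for 5 and array 1 the highest for 12. In WT hepatocytes arrays 1 and 3 were each the lowest for 3 of the 7, beside 8 and 4 of the other 24. In JNKΔhepa hepatocytes array 2 was the lowest for 4 and array 1 the highest for 6, beside 9 and 7 of the other 24. These are counts over genes read from the same RNA, which are not independent, and they carry no test.

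**Figure D3:**
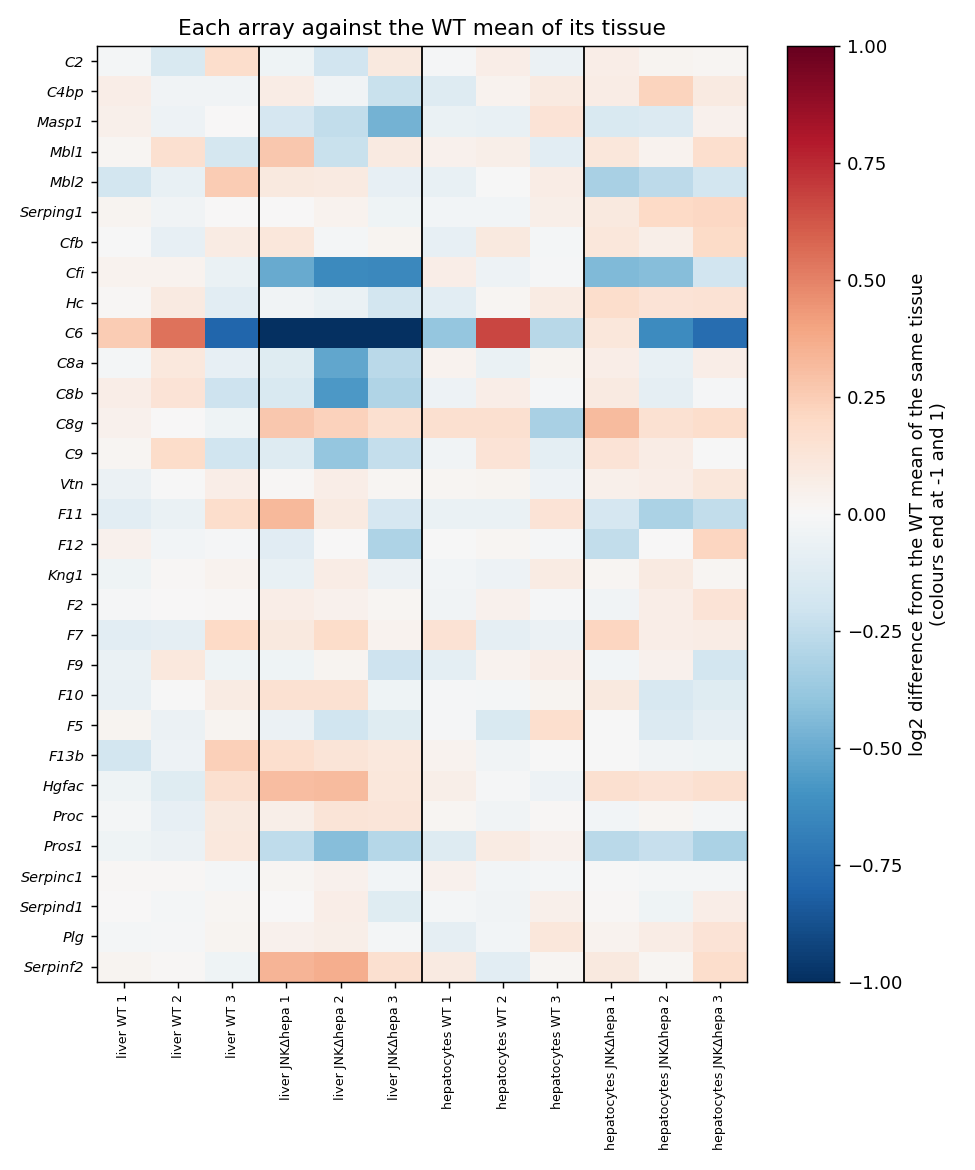
Each array's log2 reading minus the WT mean of its tissue (colour, ending at -1 and 1) for the 31 members (rows) on the 12 arrays (columns, grouped by tissue and genotype). The C6 and Cfi rows are blue across the JNKΔhepa liver arrays, while most other rows stay pale.

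The recognition arm of complement showed no member past the threshold in liver. Masp1, a lectin pathway protease, read 10.36, 10.26 and 10.31 in WT liver against 10.14, 10.06 and 9.84 in JNKΔhepa liver, without overlap (-0.29, SE 0.1, limma adjusted p = 0.225). The mannose-binding lectins Mbl1 and Mbl2 differed by 0.04 and 0.03. C2, the protease of the classical and lectin convertase, differed by -0.04, C4bp, which holds that convertase in check, by -0.06, and Serping1, the C1 inhibitor, by 0.00. The probe set shared by C4a and C4b differed by 0.09 (adjusted p = 0.793 over all probe sets) and that of Masp2 and Tardbp by 0.02.

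Coagulation genes likewise held none that passed in liver. In the contact system, which starts clotting on charged surfaces, F11 differed by 0.08, F12 by -0.14 and Kng1 by -0.02, and the probe set of Klkb1 and Cyp4v3 by -0.05. Thrombin (F2) differed by 0.05, the vitamin K-dependent factors F7, F9 and F10 by 0.10, -0.07 and 0.09, the cofactor F5 by -0.13 and F13b, which carries the fibrin-crosslinking enzyme, by 0.13. Hgfac, which activates hepatocyte growth factor and resembles F12, read 9.58, 9.50 and 9.78 in WT, against 9.93, 9.94 and 9.73 in JNKΔhepa liver, and the groups overlapped (0.24, SE 0.0917, limma adjusted p = 0.276). For F2 the JNKΔhepa readings lay above the WT readings without overlap, yet the whole span of 11.55 to 11.63 was narrow.

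Inhibitors of clotting and the fibrinolytic genes gave the largest coagulation differences, none past the threshold. Pros1 encodes protein S, the cofactor of activated protein C. It read 8.49, 8.48 and 8.64 in WT liver, against 8.28, 8.11 and 8.25 in JNKΔhepa liver, without overlap (-0.33, SE 0.0877, limma adjusted p = 0.116). Proc, the protein C zymogen, differed by 0.11, Serpinc1 (antithrombin) by 0.01 and Serpind1 (heparin cofactor II) by -0.02. Serpinf2, which encodes the plasmin inhibitor alpha-2-antiplasmin, read 11.44, 11.42 and 11.37 in WT, against 11.75, 11.77 and 11.57 in JNKΔhepa liver, again without overlap (0.29, SE 0.0863, adjusted p = 0.156). Plg, the plasmin precursor, differed by 0.03.

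The other genes of these pathways, from lists chosen together with the members, gave no call in liver: 0 of 31 measured complement genes outside the set (median -0.08) and 0 of 37 coagulation and fibrinolysis genes (median 0.04) passed. At an unadjusted p under 0.05 there were 5 and 4, beside the 12.5% of all genes. Markers of hepatocytes did not pass in liver (0 of 9, median 0.01), and their summed level overlapped between genotypes (47900 to 49200 in WT, 46800 to 49700 in JNKΔhepa). Summed stellate cell markers were 3720 to 3850 in WT, against 3250 to 3540 in JNKΔhepa liver (0 of 14 passed). Endothelial markers went the other way, at 4790 to 5540 in WT against 5360 to 5760 (0 of 14 passed). Those of Kupffer cells and macrophages overlapped, at 3690 to 5200 and 3800 to 4430. Of 6 measured cholangiocyte markers 1 rose, Muc1 (0.64, limma adjusted p = 0.0195), at readings below the array medians. The part of these cells in the member values was not tested.

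The second comparison was the same contrast in isolated hepatocytes, where 0 of 31 members passed by limma, beside 0.84% of all genes. Unadjusted p was under 0.05 for 4 members, a share near the 12.6% of all genes. WT and JNKΔhepa readings were without overlap for 8 (4 lower and 4 higher), beside 14.7% of all genes. The members' median was 0.02, with 17 above and 14 below 0, and the median of all genes was 0.00. Cfi had the smallest adjusted p, and the values of the terminal pathway lay on the other side of 0 from liver for several genes.

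Cfi read 10.44, 10.32 and 10.36 in WT hepatocytes, against 9.93, 9.95 and 10.18 in JNKΔhepa hepatocytes. All JNKΔhepa arrays lay below all WT arrays (log2 difference -0.35, SE 0.0882, 95% interval -0.54 to -0.16, limma adjusted p = 0.0947). It passed with the trended and robust prior (adjusted p = 0.0347) and when only genes above the median level were kept (0.0499). C6 read 8.64, 9.70 and 8.75 in WT, against 9.14, 8.40 and 8.27 in JNKΔhepa hepatocytes. Its groups overlapped, and the interval was wide (-0.43, SE 0.374, 95% interval -1.24 to 0.38, adjusted p = 0.72).

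Of the terminal pathway, 5 of 7 genes lay above 0 in hepatocytes (median 0.07). C8a differed by 0.02, C8b by -0.01, C9 by 0.07 and Hc by 0.15, none of which passed. Hc and Vtn were the terminal members whose JNKΔhepa readings were all above the WT readings. C8g read 11, 11 and 10.51 in WT, against 11.15, 10.99 and 11.01 in JNKΔhepa hepatocytes, so its difference of 0.21 (SE 0.119, limma adjusted p = 0.518) rested largely on the low WT array 3. Among inhibitors, the cofactor Pros1 and the C1 inhibitor Serping1 kept their genotypes apart in opposite directions. Pros1 read 7.19, 7.40 and 7.36 in WT against 7.05, 7.09 and 7.00 in JNKΔhepa, without overlap, as in liver (-0.27, SE 0.0877, adjusted p = 0.201). Serping1 read 11.49, 11.49 and 11.58 in WT against 11.62, 11.72 and 11.73 in JNKΔhepa, also without overlap (0.17, SE 0.0733, adjusted p = 0.363). Hgfac read 9.29, 9.22 and 9.18 against 9.39, 9.37 and 9.39, a difference of 0.15 (adjusted p = 0.555). Its JNKΔhepa readings were all the higher ones.

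Mbl2 and F11 stood out among the remaining members in hepatocytes by having no overlap, both lower in JNKΔhepa. Mbl2 read 8.33, 8.40 and 8.48 in WT, against 8.08, 8.14 and 8.22 in JNKΔhepa (-0.25, SE 0.11, limma adjusted p = 0.361). F11, the zymogen of the intrinsic pathway, read 8.54, 8.54 and 8.74 in WT, against 8.44, 8.29 and 8.36 in JNKΔhepa (-0.24, SE 0.123, adjusted p = 0.451). Neither difference passed. The other measured coagulation members lay between -0.08 and 0.12 apart from Hgfac and Pros1. The shared probe set of C4a and C4b read 10.39, 10.46 and 10.58 in WT, against 10.73, 10.75 and 10.79 in JNKΔhepa hepatocytes (0.28, adjusted p = 0.227 over all probe sets).

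Outside the set, 2 of 31 complement genes fell in JNKΔhepa hepatocytes and 0 of 37 coagulation genes changed. Both that fell, C1qb (-1.08, limma adjusted p = 0.0225), a chain of C1q, and Fcna (-0.79, adjusted p = 0.0272), the lectin ficolin A, are on the list of Kupffer cell and macrophage markers as well. All 13 measured markers of that list lay below 0 in hepatocytes, with 2 past the threshold (C1qb and Fcna) and a median of -0.77. Their summed level was 864 to 1490 in WT, against 554 to 861 in JNKΔhepa hepatocytes. Endothelial markers summed to 1590 to 2090 and 1200 to 1680, and stellate markers to 643 to 833 and 441 to 617. Their part in the hepatocyte differences was not tested. Hepatocyte markers summed to 41700 to 45400 and 43600 to 46600, and 0 of 9 passed.

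**Figure D4:**
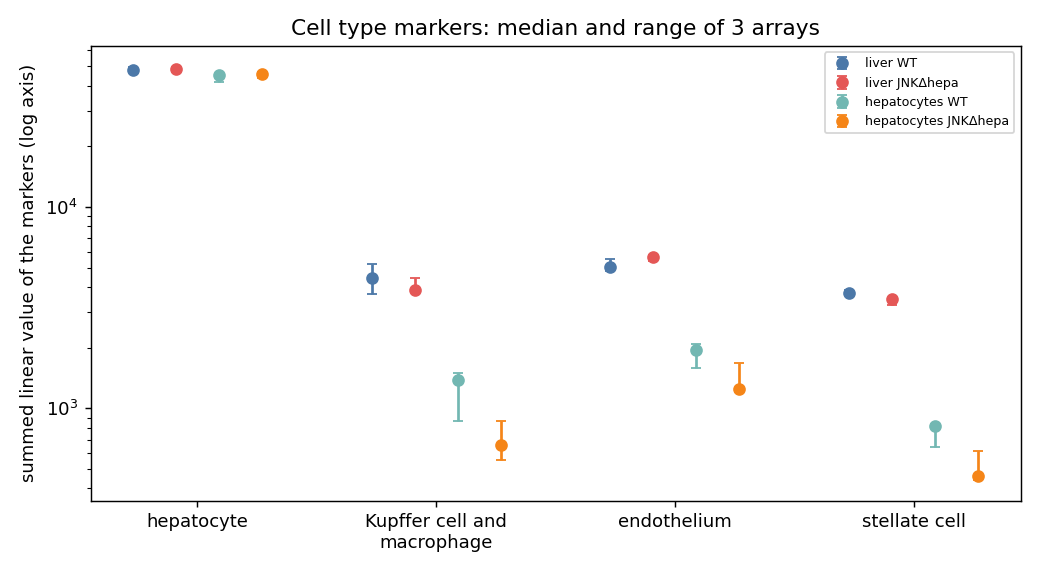
Summed linear values of marker lists for hepatocytes, Kupffer cells and macrophages, endothelium and stellate cells (log axis) in the 4 groups, as the median (point) and the range (line) of 3 arrays. Hepatocyte markers lay at 41700 to 49700 in all groups, and the other lists were lower in hepatocytes than in liver, with the lowest medians in JNKΔhepa hepatocytes.

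Whether the genotype effect differed between hepatocytes and liver was tested as an interaction, and 0 of 31 members passed, beside 0.0106% of all genes, which is 2 genes. At an unadjusted p under 0.05 there were 2 members, a share near the 7.22% of all genes. C6 had the largest value, the hepatocyte effect minus the liver effect being 1.33 (SE 0.529, 95% interval 0.19 to 2.48, limma adjusted p = 0.627). The call of C6 in liver and its absence in hepatocytes therefore do not show a difference between them. C8b followed at 0.34 (adjusted p = 0.714) and C8a at 0.33 (0.664). On the negative side were F11 at -0.32 (0.742), Mbl2 at -0.29 (0.746) and Serpinf2 at -0.19 (0.79). None of the liver and hepatocyte differences behind these values passed, except that of C6 in liver. F11 read 8.71, 8.75 and 8.99 in WT, against 9.14, 8.91 and 8.65 in JNKΔhepa liver, where its groups overlapped. Mbl2 liver readings of 8.59, 8.70 and 9.03 in WT, against 8.87, 8.86 and 8.69 in JNKΔhepa overlapped too. The liver readings of Serpinf2 were apart, and those in hepatocytes were not. Serpinf2 read 11.41, 11.22 and 11.34 in WT, against 11.42, 11.34 and 11.50 in JNKΔhepa hepatocytes. C8b read 11, 11.12 and 11.04 against 11.14, 10.96 and 11.04, and C8a 10.32, 10.22 and 10.31 against 10.35, 10.21 and 10.35, so the hepatocyte groups of Serpinf2, C8b and C8a overlapped, while those of F11 and Mbl2 did not.

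The last comparisons set hepatocytes against the liver of the same genotype, on the values as deposited. In WT 27 of 31 members were lower in hepatocytes and 0 higher, beside 85.6% of all genes lower. In JNKΔhepa 23 were lower and 0 higher, beside 85.9%. The members' median differences were -0.37 and -0.32, and those of all genes -0.58 and -0.60, and 27 members lay above the median of all genes in each genotype. After quantile normalisation over all arrays this was 13 members in WT and 17 in JNKΔhepa. The direction rests on the scaling: with array medians subtracted, 27 members were higher in hepatocytes and 1 lower in both genotypes. Of all genes 46.6% were then higher and 9.84% lower in WT, and 50% and 10.4% in JNKΔhepa. After quantile normalisation 1 member was higher and 2 lower in WT, beside 13.6% and 14.8% of all genes. In JNKΔhepa 1 was higher and 1 lower, beside 14.3% and 15.6%. Pros1 was the member that fell in both genotypes under all 3 scalings. With the mouse as a fixed block the deposited values gave 26 and 22 members lower, without F12 in WT and Vtn in JNKΔhepa. With the mouse as a random block they gave 27 and 23.

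Pros1 readings in hepatocytes minus those in the liver of the same mouse were -1.30, -1.08 and -1.28 in WT, against -1.22, -1.01 and -1.25 in JNKΔhepa (limma differences -1.22 and -1.16, SE 0.0877, adjusted p = 1.74e-07 and 1.99e-07). All 6 mice lay between -1.30 and -1.01. Masp1 differed by -1.10, -1.01 and -0.85 in WT mice and by -0.98, -0.87 and -0.47 in JNKΔhepa mice. C2 differed by -0.80, -0.59 and -1.05 in WT and by -0.70, -0.59 and -0.89 in JNKΔhepa mice. With array medians subtracted C2 became 0.02 in WT and 0.15 in JNKΔhepa and Masp1 0.10 in JNKΔhepa, so these directions are not settled. Masp1 in WT kept its sign, at -0.15 (adjusted p = 0.204) with medians subtracted and at -0.51 (0.00282) after quantile normalisation. Kng1, the kininogen that carries bradykinin and that has the close paralog Kng2, lay at the other end, with 0.02, -0.06 and 0.05 in WT, against 0.10, 0.02 and 0.08 in JNKΔhepa mice.

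C6 differed most between genotypes in this measure. Hepatocytes minus liver was -1.80, -1.03 and -0.65 in the WT mice and 0.56, 0.52 and -0.57 in the JNKΔhepa mice. All WT mice had less C6 signal in hepatocytes than in liver as deposited, and the JNKΔhepa mice fell on both sides of 0. The WT difference of -1.16 (SE 0.374, limma adjusted p = 0.0111) passed, but not without liver WT 2 (0.054), after quantile normalisation (-0.69, 0.198) or with array medians subtracted (-0.33, 0.475). The JNKΔhepa difference was 0.17 (adjusted p = 0.669). C8b, at -0.45, -0.41 and -0.13 in WT and -0.09, 0.15 and -0.04 in JNKΔhepa mice, lay higher in each JNKΔhepa mouse than in any WT mouse. The same held for C6, C8a, C9, Hc, Serping1 and Cfi, while F11, F10 and Proc lay lower in each JNKΔhepa mouse. The share of all genes apart in this measure was not counted, so these separations do not show that the members stand out. Within a tissue, readings of the genotypes were apart for 20.4% of all genes in liver and 14.7% in hepatocytes. The test of these differences between genotypes is the interaction above, which no member passed.

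**Figure D5:**
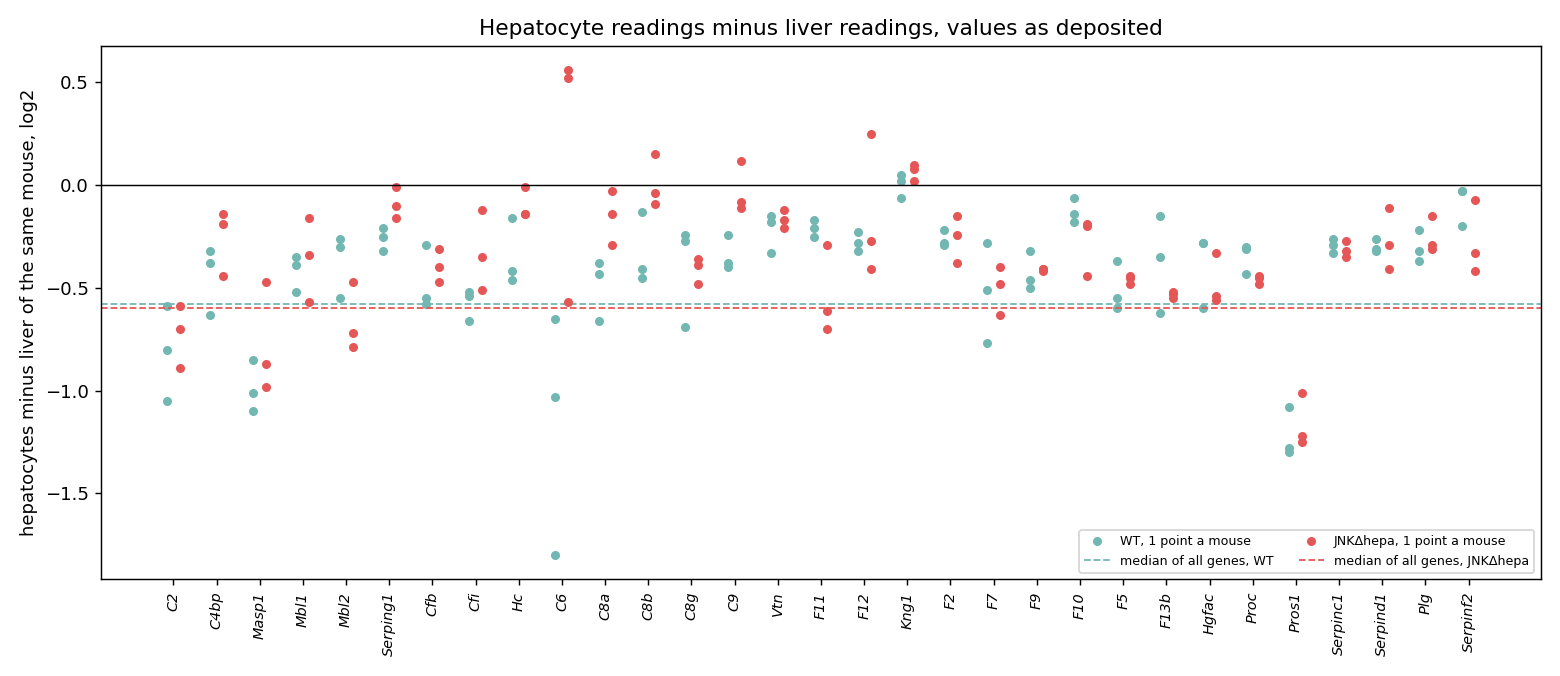
Hepatocyte reading minus liver reading of the same mouse (log2, values as deposited) for the 31 members, 1 point a mouse, in WT (teal) and JNKΔhepa (red), with the median of all genes as dashed lines at -0.58 and -0.60. Pros1 lies lowest by mean, C6 spreads from -1.80 to 0.56, and Kng1 sits near 0.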

How the data were processed

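The deposited table held 35556 probe sets on 12 arrays, with 0 missing values and 0 columns without a sample. The authors deposited log2 values made with RMA, per the submitters' processing notes (for its version, software, probe-set definition and genome build: not given in the sources used here); arrays carry no depth, so their number limits the precision. A single symbol named 21218 probe sets, several symbols 1881, and 12457 were not named, giving 18820 genes by their brightest probe set. Groups and replicate numbers came from titles. limma 3.58.1 (R 4.3.3, statmod 1.5.0) fitted the 4 group means with a shared spread (8 residual and 4.76 prior degrees of freedom), without a filter on dim values; tests were two-sided, with Benjamini-Hochberg adjustment over all genes and a threshold of 0.05. The fit was tested on simulated data. Differences are JNKΔhepa minus WT or hepatocytes minus liver.

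Members and lists were chosen with earlier results of these data known. Array values are given for members past the threshold and the 3 largest changes each way per comparison, and for others named after their values were seen. Same-numbered liver and hepatocyte samples come from the same mouse, per the labels, and their deviations correlated at -0.0133 to 0.0982. Across genotypes the numbers are shared names only. Other settings (9, besides leaving out each of 12 arrays, and 1 chosen after the data were seen) are in the closing section. Promoters come from RefSeq (GRCm38.p6). Figures used matplotlib 3.10.9 with numpy 2.4.6 and pandas 2.3.3 (Python 3.11.15).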

Additional observations from a re-analysis of the deposited data

How the results depend on the processing

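The liver count of members past the threshold (2, C6 and Cfi) was 1, Cfi alone, when each tissue was fitted alone, with a trended and robust prior, with the replicate block and over all probe sets (an alternative chosen after seeing the data), and 1 to 2 without single arrays. C6 had adjusted p = 0.0642 with the replicate block, where same-numbered WT and JNKΔhepa arrays correlated at -0.12 to 0.0267 in liver and -0.0232 to 0.112 in hepatocytes, so the numbers are not taken to pair the genotypes; with the mouse as a random block (consensus correlation 0.0487) the count stayed 2. The replicate block changed no other genotype call. Between tissues it is the mouse as a fixed block and gave 26 and 22, and the random block gave 27 and 23. The hepatocyte count (0) was 1, Cfi, with the trended and robust prior and among genes above the median level. Between tissues, the counts of 27 in WT and 23 in JNKΔhepa became 3 and 2 after quantile normalisation over all arrays, and 28 and 28, mostly turned to higher in hepatocytes, with array medians subtracted, which moves the median of all genes to 0.26 and 0.28. There Masp1 (0.10) and C2 (0.15) in JNKΔhepa and C2 (0.02) in WT reversed. Leaving out single arrays gave 23 to 27 and 19 to 23. For the other shifts the cause was not tested. With 3 arrays a group, small differences such as those of most members cannot be told from none.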

Other observations

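Susd4, a membrane regulator of complement outside the set, read 8.37, 8.13 and 6.62 in WT liver, against 6.86, 5.99 and 5.91 in JNKΔhepa liver (log2 difference -1.45, SE 0.386, limma adjusted p = 0.112). WT array 3 was the lowest of its group, as for C6. Both genes are also on the list of male-biased liver genes, of which 18 of 20 were measured. All 18 lay below 0 in liver, beside 8591 of all 18820 genes, with a median of -0.44 and 1 past the threshold, C6. At an unadjusted p under 0.05 there were 11 in liver, beside 12.5% of all genes. Genes read from the same RNA are not independent. Hsd3b5, a steroid dehydrogenase of that list, read 10.31, 10.91 and 9.74 in WT, against 8.33, 4.65 and 8.50 in JNKΔhepa liver (-3.16, adjusted p = 0.0785). In hepatocytes the list lay at a median of 0.01, with 10 above and 8 below 0 and 0 past the threshold (1 at an unadjusted p under 0.05). All mice were males, and the list was chosen with earlier results of these data known. Of the female-biased list 14 of 18 were measured. In liver 9 lay above and 5 below 0, with a median of 0.35, a range of -1.78 to 1.72 and 1 past the threshold. In hepatocytes 7 lay above and 7 below 0, with a median of -0.02 and 1 past the threshold. At an unadjusted p under 0.05 there were 6 in liver and 3 in hepatocytes, beside 12.5% and 12.6% of all genes. Hao2, an oxidase of hydroxy acids, rose in liver (0.53, adjusted p = 0.0478). Its liver readings of 2.02 to 2.89 lay below the median of every liver array, so the size of this change is not exact. Cyp17a1, a steroid hydroxylase, fell in hepatocytes (-1.93, adjusted p = 0.0444).

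The fibrinogen chains Fga, Fgb and Fgg, the substrate of thrombin, differed by 0.09, 0.03 and 0.04 in liver (limma adjusted p = 0.833, 0.939 and 0.912). A list of hepatic regulators, whose action on the members was not tested, had 22 measured genes. Of these 0 passed in liver and 0 in hepatocytes. At an unadjusted p under 0.05 there were 4 and 5, beside 12.5% and 12.6% of all genes. In liver Stat5b, a transducer of growth hormone signals, had the smallest p of the 22. It read 7.15, 7.20 and 6.94 in WT, against 7.70, 7.56 and 7.33 in JNKΔhepa, without overlap (0.44, adjusted p = 0.119). Genotypes were without overlap for 5 regulators higher and 2 lower in JNKΔhepa liver, beside 20.4% of all genes. Larger liver differences included Onecut1 (-1.13, adjusted p = 0.177), Tef (-0.61) and Stat5a (0.5).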
